A study of Mus musculus with 78 samples.

Results

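The cingulate cortex (Cg) was compared with the basolateral amygdala (BLA) in mice of 3 lines bred for anxiety-related behavior. All 17 Cg arrays and all 16 BLA arrays were used, out of 75 arrays with values from 5 regions. The members were chosen by the region named in each label, and a measured value played no part in the choice. The lines, derived from CD-1 mice, show high (HAB), intermediate (NAB, normal) and low (LAB) levels of anxiety-related behavior, and all animals here were males aged 10 weeks from breeding generation 25. The lines were bred by behavior on the elevated plus-maze, and no treatment group was part of the comparison. The Cg held 5 HAB, 6 NAB and 6 LAB arrays, and the BLA held 5 HAB, 6 NAB and 5 LAB arrays. Each region had been cut by laser from cresyl violet stained sections, and each RNA sample came from 1 mouse and 1 region. By the mouse numbers in the labels, 16 mice gave both arrays and 1 LAB mouse gave only a Cg array. Differences are given as Cg minus BLA on the log2 scale, with the standard error (SE) of the fit, and adjusted p-values come from limma with the line as covariate and Benjamini-Hochberg adjustment over all probes tested.

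Both regions are built mainly from glutamate neurons of pallial origin, with a smaller share of GABA interneurons. The Cg is a layered cortex that sends its axons to other cortex, striatum and brainstem, and it lies below the meninges at the midline. The BLA has the same principal cell classes without layers, and it links sensory input to the output neurons of the central amygdala (CeA). Both take part in the appraisal of threat. Retinoic acid, a vitamin A derivative that acts through nuclear receptors, patterns the forebrain during development and is made in the adult meninges. Tissue samples hold many cell types, so fewer cells of a type and less RNA per cell cannot be told apart in what follows.

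All arrays of a region had been hybridised as a batch, so region and batch cannot be told apart in any comparison below. Which arrays shared a slide is not stated in the sources used here. The median intensity of an array lay between 5.88 and 6.19, and the background level, taken as the 95th percentile of 1305 probes for odorant and pheromone receptor genes, between 7.59 and 9.59. The share of probes above this level ran from 31.1% to 40.4% per array. Arrays correlated at 0.952 to 0.983 inside the Cg, at 0.945 to 0.988 inside the BLA and at 0.913 to 0.961 between the regions. The BLA array of HAB mouse 17 stood apart from the other BLA arrays. Its weight in a fit with array weights was 0.305, the lowest of all 33 arrays. It was also the lowest BLA array for 196 of the 399 probes that were at least 2-fold higher in the BLA, whereas the array next in this order was lowest for 47. Without this mouse 561 in place of 531 probes differed at least 2-fold. The Cg array of NAB mouse 4 stood apart from the other Cg arrays for genes of central amygdala and striatum. It was the highest Cg array for 15 of 20 such genes tested, and their summed intensity was 1206 there and 524 to 652 on the other Cg arrays. Rgs9, a striatal regulator of G protein signalling, read 214 against 49.0 to 79.0, and the dopamine receptor gene Drd1 50.3 against 17.5 to 27.1. Without this mouse 10754 probes were called and 537 differed at least 2-fold.

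Many probes above background differed between the regions, mostly by little. Of 19719 probes tested, 11228 passed an adjusted p of 0.05 (56.9%), 3460 of them higher in the Cg (17.5%) and 7768 higher in the BLA (39.4%). The direction of the small differences depended on the scaling: the median difference over all probes was -0.09, and after centring each array on its median 5879 probes were higher in the Cg and 5237 in the BLA. Over all probes tested, 29.8% were higher in the Cg and 26.6% in the BLA after centring, to be set beside the shares of the gene lists below. The share of calls higher in the Cg was 30.8% as deposited, 52.9% after centring and 51.8% after quantile normalisation. A difference of at least 2-fold was found for 531 probes (2.69%), of which 132 were higher in the Cg (0.669%) and 399 in the BLA (2.02%). After centring these were 191 and 290. All 531 had the same sign in each of the 3 lines, and 506 passed the threshold in each line. They had been chosen on the 3 lines together, so this agreement was largely built into the choice. The lowest array of one region lay above the highest of the other for 878 probes (4.45%), and 298 of these differed at least 2-fold.

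**Figure D1:**
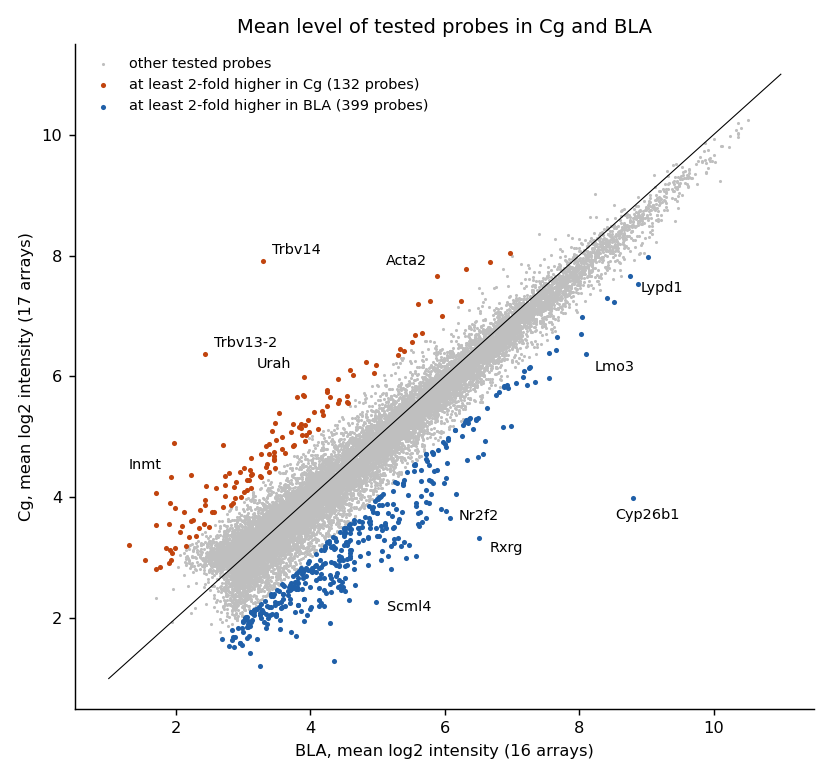
Mean log2 intensity of each tested probe over the 16 BLA arrays (horizontal axis) and the 17 Cg arrays (vertical axis), with the line of equal level. Red points mark the 132 probes at least 2-fold higher in the Cg and blue points the 399 at least 2-fold higher in the BLA, and Cyp26b1 and Trbv14 lie farthest from the line.

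Retinoic acid genes gave the largest difference toward the BLA. Cyp26b1 encodes the hydroxylase that clears retinoic acid. Its intensity was 9.66 at the lowest, 14.4 at the median and 28.6 at the highest in the Cg, and 336, 450 and 571 in the BLA. Every BLA array was therefore more than 10 times as bright as every Cg array. The difference was -4.81 (SE 0.11, adjusted p 1.28e-26), a 28.1-fold higher level in the BLA. Rxrg, a retinoid X receptor that pairs with retinoic acid receptors, read 5.62, 9.09 and 26.1 (lowest, median, highest) in the Cg and 67.0, 91.3 and 118 in the BLA. The highest Cg array, of NAB mouse 4, stayed far below the lowest BLA array, and 11 of 17 Cg arrays were above background (-3.18, SE 0.12, adjusted p 8.21e-21, and -3.26 without this mouse). Nr2f2, an orphan nuclear receptor known as COUP-TFII, read 10.2, 13.5 and 19.3 in the Cg and 43.7, 67.7 and 83.7 in the BLA (-2.24, SE 0.08, adjusted p 8.96e-21).

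Sequences before the transcription start of these 3 nuclear receptor and retinoic acid genes are shown because all are among the 15 leading genes of the BLA, followed by that of the GABA transporter gene Slc6a13, one of the leading genes of the Cg. They are the 250 bases before the start (RefSeq, GRCm38.p6; where the table lists several starts, the one listed first), 5′ to 3′, with CG dinucleotides in capitals. The Cyp26b1 sequence (chr6:84593811-84594060, minus strand) held 7 CG dinucleotides, that of Rxrg (chr1:167598112-167598361, plus strand) 6, that of Nr2f2 (chr7:70366747-70366996, minus strand) 1 and that of Slc6a13 (chr6:121300038-121300287, plus strand) 9, against a median of 6 over 32851 such windows. The hexamer AGGTCA or its reverse complement TGACCT, to which many nuclear receptors bind, was in none of these 4 windows and in 14.0% of all.
Cyp26b1: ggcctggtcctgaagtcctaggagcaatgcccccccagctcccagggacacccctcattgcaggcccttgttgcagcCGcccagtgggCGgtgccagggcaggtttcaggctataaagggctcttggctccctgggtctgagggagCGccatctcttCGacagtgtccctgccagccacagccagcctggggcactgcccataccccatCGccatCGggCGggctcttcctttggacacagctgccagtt
Rxrg: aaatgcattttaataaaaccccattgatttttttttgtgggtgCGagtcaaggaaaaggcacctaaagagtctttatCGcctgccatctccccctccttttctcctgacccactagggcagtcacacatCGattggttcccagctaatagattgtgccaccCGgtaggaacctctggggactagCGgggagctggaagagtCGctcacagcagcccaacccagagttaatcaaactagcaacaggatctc
Nr2f2: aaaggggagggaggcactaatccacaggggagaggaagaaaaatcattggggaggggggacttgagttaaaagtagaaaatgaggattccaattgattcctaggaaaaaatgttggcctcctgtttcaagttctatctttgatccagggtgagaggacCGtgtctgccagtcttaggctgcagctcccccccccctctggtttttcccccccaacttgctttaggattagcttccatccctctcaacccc
Slc6a13: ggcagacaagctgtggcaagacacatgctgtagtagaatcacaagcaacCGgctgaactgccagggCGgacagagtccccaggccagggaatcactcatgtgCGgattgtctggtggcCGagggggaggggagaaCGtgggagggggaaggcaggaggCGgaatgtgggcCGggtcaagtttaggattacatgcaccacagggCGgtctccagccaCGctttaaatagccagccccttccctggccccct

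The other genes of the pathway differed less and in both directions. Of 22 listed genes on the array 13 were tested, 4 were higher in the Cg (30.8%), 7 higher in the BLA (53.8%) and 2 not called. Over all probes these shares were 17.5% and 39.4%. The list was written after Cyp26b1 and Rxrg had been seen. Stra6, the receptor for the plasma carrier of retinol, was not above background on any Cg array (5.99 ± 1.27, SD, n = 17) and read 11.7 ± 1.95 in the BLA (n = 16), at least 1.33-fold higher (adjusted p 3.06e-10). Nr2f1, the close relative of Nr2f2, was -0.63 apart, and Rarb, a retinoic acid receptor, -0.46. Aldh1a2, which makes retinoic acid and is expressed in meninges, was 0.72 higher in the Cg, and Rdh5, a retinol dehydrogenase, 0.49. Rxrb, another retinoid X receptor, read 172 and 171 and was not called (0.00).

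Genes named for the BLA and the adjoining claustro-amygdalar pallium held several of the largest differences. Of 20 tested, 13 were higher in the BLA (65.0%) and 6 in the Cg (30.0%), beside 39.4% and 17.5% of all probes. The median was -0.47 beside -0.09 for all probes. The regions did not overlap for 6 of the 20 (30.0%), each higher in the BLA, beside 4.45% of all probes. They include Cyp26b1 and Nr2f2 above. Lmo3, a LIM-only transcriptional cofactor, read 62.7, 83.8 and 125 (lowest, median, highest) in the Cg and 225, 268 and 311 in the BLA (-1.73, SE 0.06, adjusted p 5.07e-21). Lypd1, a membrane-anchored protein of the Lynx family, read 153, 205 and 239 in the Cg and 322, 431 and 601 in the BLA (-1.09, SE 0.07, adjusted p 7.14e-15). For both genes the highest Cg array lay below the lowest BLA array. Lxn, a carboxypeptidase inhibitor used as a marker of claustral neurons, was -0.92 apart. The members higher in the Cg were Rspo1 (0.64), Ddit4l (0.62), Cdh13 (0.51) and Dkk3 (0.39) among others.

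Transcriptional regulators were found among the leading genes in both directions. Tfap2d, an AP-2 family factor, was above background on none of 17 Cg arrays (2.24 to 5.53) and on all 16 BLA arrays (11.1 to 30.1), at least 2.26-fold higher in the BLA (adjusted p 1.91e-17). Scml4, a Polycomb-related protein, was likewise above background on no Cg array (3.08 to 7.04) and read 19.6 to 39.4 in the BLA, at least 3.62-fold higher (adjusted p 2.70e-20). Meis1, a homeobox factor, read 2.19 to 6.72 in the Cg, below background throughout, and 10.3 to 19.5 in the BLA, at least 1.78-fold higher (adjusted p 9.82e-15). Of 35 forebrain transcription factors tested, 11 were higher in the Cg (31.4%), 12 in the BLA (34.3%) and 12 not called (median -0.02). Over all probes these shares were 17.5% and 39.4%. Otx1, a homeobox factor of deep cortical layers, had the largest difference of this list toward the Cg, with 52.2, 64.3 and 82.0 in the Cg and 20.3, 24.2 and 30.8 in the BLA (1.39, SE 0.06, adjusted p 2.41e-19). Zic1 was 1.29 higher in the Cg, where it ranged from 10.4 to 43.2, and Meis2 0.98 higher, both with overlapping arrays. The cortical factor Tbr1 was 0.53 higher in the Cg.

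**Figure D2:**
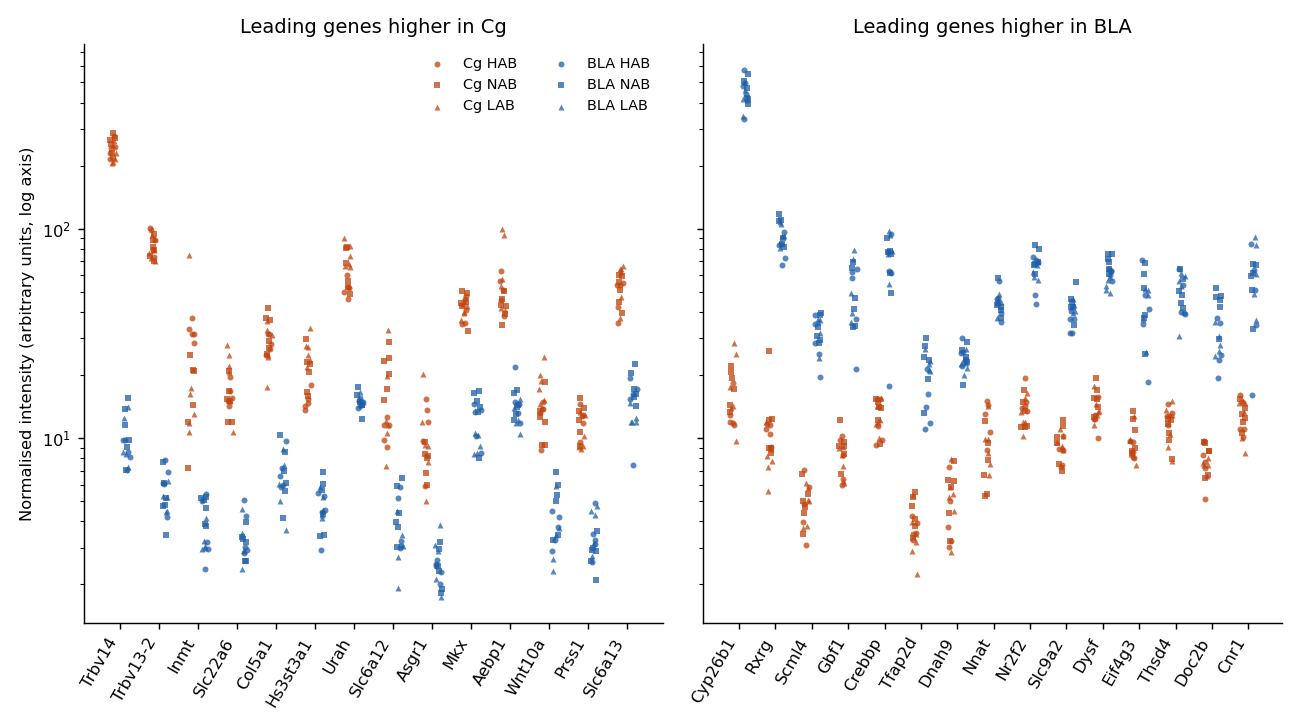
Intensity on each array (log axis, arbitrary units) for the leading genes with a name higher in the Cg (14, left) and in the BLA (15, right), with Cg in red, BLA in blue and a marker shape for each line. Arrays of the 2 regions do not overlap for any of these genes, which was a condition of the choice, and the 3 lines mix within each region.

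The other leading genes of the BLA included membrane and matrix proteins. Nnat, an imprinted membrane proteolipid gene, read 5.29, 9.50 and 15.0 in the Cg and 36.0, 44.1 and 57.9 in the BLA (-2.25, SE 0.11), and its 2 other tested probes were -1.52 and -0.95 apart. Dysf, a membrane repair protein, read 9.99 to 19.3 in the Cg and 49.3 to 76.1 in the BLA (-2.13, SE 0.06, adjusted p 1.78e-23), and its other probe was -1.22 apart. Slc9a2, a sodium-proton exchanger, was -2.15 apart (SE 0.07) with a second probe at -1.98, and Doc2b, a calcium sensor of vesicle release, -2.08 (SE 0.10) with a second probe at -1.92. For these 4 genes each tested probe was higher in the BLA. In the Cg, Slc9a2 read 6.95 to 12.2 and Doc2b 5.13 to 9.69, around background, and their second probes averaged 5.95 and 5.85 there. The sizes of the Slc9a2 and Doc2b differences are therefore not fixed by these data. Thsd4, an extracellular matrix protein, was -2.10 apart (SE 0.10), and Dnah9, an axonemal dynein, was above background on no Cg array and at least 2.74-fold higher in the BLA.

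For 5 probes, 4 of widely expressed genes and 1 of the cannabinoid receptor gene Cnr1, the same arrays stood apart. They belong to Crebbp (a histone acetyltransferase), Gbf1 (an activator of Golgi ARF proteins), Eif4g3 (a translation factor), Map2 (a dendritic microtubule protein, named although its arrays overlapped) and Cnr1, and this group was formed after their values had been seen. The differences were -2.43 (SE 0.15), -2.54 (SE 0.14), -2.13 (SE 0.14), at least 2.34-fold for Map2 and -2.07 (SE 0.16). The Map2 probe was above background on no Cg array and on 15 of 16 BLA arrays. For each of them the BLA array of HAB mouse 17 was the lowest: the Crebbp probe read 17.8 there and 49.3 to 97.8 on the other BLA arrays, against at most 15.6 in the Cg. Without this mouse the differences of the other 4 were -2.53, -2.62, -2.21 and -2.17. In the CeA, which was not part of the comparison, the same 3 of 17 arrays (NAB mouse 18, LAB mice 19 and 21) were high for all 5 probes, with 82.6 to 114 against 5.30 to 23.4 for Crebbp. Other probes of these genes differed by as much or by far less: the second Crebbp probe was -2.43 apart, the second Cnr1 probe -0.59, the 3 other Map2 probes -1.03 to -0.16, and the second Eif4g3 probe, which read 164 ± 17.2 and 167 ± 13.6, was not called (-0.03). Whether a feature of these arrays other than the region had a part in the 5 differences was not tested.

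Across all genes at least 2-fold higher in the BLA, 131 of 287 had another tested probe. Of these 213 other probes, 22 were also at least 2-fold higher in the BLA, 119 were called in the same direction by less, 59 were not called and 13 were called in the opposite direction. For the Cg, 32 of 104 genes had another tested probe, and of these 41 probes 5, 24, 9 and 3 fell into the same classes. For each gene the others were set beside the probe with its largest difference. Smaller differences at other probes were thus built into this choice.

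Several receptors for neuropeptides were higher in the BLA. Of 21 tested, 10 were higher in the BLA and 3 in the Cg, with a median of -0.17. These shares, 47.6% and 14.3%, lie near the 39.4% and 17.5% of all probes, and after centring they were 38.1% and 19.0%. The regions did not overlap for 5 members of the list, Crhbp among them, each higher in the BLA, beside 4.45% of all probes. Tacr1, the substance P receptor, read 2.80, 5.40 and 10.5 in the Cg and 14.2, 19.9 and 28.4 in the BLA (-1.88, SE 0.13, adjusted p 3.98e-14), with 2 of 17 Cg arrays above background. Oprk1, the kappa opioid receptor, read 6.18, 8.49 and 13.1 in the Cg and 19.2, 30.9 and 38.5 in the BLA (-1.79, SE 0.09, adjusted p 3.54e-17), with 8 of 17 Cg arrays above background. Hcrtr1, the orexin receptor, was -1.52 apart (SE 0.10, adjusted p 1.87e-14). Crhbp, the protein that binds corticotropin-releasing hormone and that the list also held, read 64.5 to 108 in the Cg and 147 to 232 in the BLA (-1.18, SE 0.06, adjusted p 3.31e-18). Higher in the Cg were the neurotensin receptor gene Ntsr1 (0.80), the cholecystokinin receptor gene Cckbr (0.54) and Crhr1 (0.25), a receptor for corticotropin-releasing hormone. Crhr1 read 6.64 to 11.3 in the Cg and 5.45 to 10.4 in the BLA, around background in both regions, so the size of its difference is not fixed by these data. Of 20 peptide genes tested, 10 were higher in the BLA and 5 in the Cg, led by Penk (-0.93), Trh (-0.85) and Nts (-0.82) toward the BLA and Tac1 (0.56) and Adcyap1 (0.47) toward the Cg. Penk read 3.80 to 13.0 in the Cg, around background, and 8.12 to 15.5 in the BLA, so the size of its difference is not fixed by these data. After centring 7 peptides were higher in the Cg and 6 in the BLA.

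Among receptors for monoamines, acetylcholine and cannabinoids, 9 of 20 tested were higher in the BLA and 4 in the Cg (median -0.20), shares of 45.0% and 20.0% that lie near those of all probes. The serotonin receptor gene Htr1d was above background on 1 Cg array, which read 23.9 where the Cg median was 4.29, and read 14.8 to 22.5 in the BLA (-2.02, SE 0.17, adjusted p 3.16e-12). That array was again the one of NAB mouse 4, and since the other 16 lay at or below background, the size of the difference is not fixed by these data. Hrh3, a histamine receptor, was -0.98 apart. In the opposite direction Chrm3, a muscarinic acetylcholine receptor, read 27.2, 30.8 and 39.7 in the Cg and 8.64, 10.7 and 16.6 in the BLA (1.47, SE 0.08, adjusted p 1.24e-16). Htr1a, the serotonin autoreceptor that is also found on cortical neurons, was 0.81 higher in the Cg.

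Receptors for glutamate and GABA, ionotropic and metabotropic, were mostly higher in the BLA. Of 14 glutamate receptor genes tested, 10 were higher in the BLA (71.4%) and 1 in the Cg (7.14%), beside 39.4% and 17.5% of all probes. Their median was -0.42, and the counts were 9 and 2 after centring. Gria1, an AMPA receptor subunit, was -0.67 apart, the metabotropic receptor gene Grm8 -0.79 and the kainate receptor gene Grik5 -0.62, whereas the kainate receptor subunit Grik4 was 0.77 higher in the Cg. Of 8 GABA receptor genes, 6 were higher in the BLA and 1 in the Cg (median -0.50). That 1 gene was Gabrd, the delta subunit of extrasynaptic receptors, with 54.8, 65.4 and 77.9 in the Cg and 24.0, 31.8 and 44.2 in the BLA (1.13, SE 0.06, adjusted p 1.24e-17). Gabrg1, the gamma-1 subunit, was above background on no Cg array and at least 1.50-fold higher in the BLA (adjusted p 6.25e-10), and Gabra2 was -0.94 apart. Of 39 potassium channel genes, 16 were higher in the Cg (41.0%) and 9 in the BLA (23.1%), with a median of 0.08. The counts were 20 and 6 after centring, and 13 and 12 without HAB mouse 17. Kcnmb4 (0.82), Kcnh7 (0.77) and Kcnj12 (0.62) lay toward the Cg, and Kcna1 (-1.70) and Kcnd2 (-1.12) toward the BLA. A second Kcnh7 probe was called in the opposite direction. Kcna1 read 2.51 to 11.7 in the Cg, around the background level, so the size of its difference is not fixed by these data. The BLA array of HAB mouse 17 read 5.84 for Kcna1, against 14.2 to 35.9 on the other BLA arrays. For Kcnd2 it read 48 against 66.3 to 99.7.

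Calcium-binding and calcium signalling genes were mostly higher in the BLA as deposited. Of 32 tested, 25 were higher in the BLA (78.1%) and 5 in the Cg (15.6%), beside 39.4% and 17.5% of all probes (median -0.32). After centring the counts were 17 and 6, and without HAB mouse 17 they were 25 and 3. Hpcal1, a neuronal calcium sensor, read 9.32, 14.3 and 16.3 in the Cg and 25.9, 53.3 and 70.0 in the BLA (-1.87, SE 0.11, adjusted p 3.68e-16). Necab2, an EF-hand protein, read 12.4 to 32.0 and 41.8 to 78.6 (-1.59, SE 0.13, adjusted p 2.37e-12), and Necab1 was -1.06 apart. Toward the Cg the kinase genes Camk2g (0.48) and Camkk2 (0.45) led.

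The largest difference toward the Cg was found for 2 gene segments of the T cell receptor beta locus. Trbv14 read 207, 242 and 285 (lowest, median, highest) in the Cg and 7.05, 9.44 and 15.6 in the BLA, where 9 of 16 arrays were above background (4.62, SE 0.09, adjusted p 6.89e-29). Trbv13-2 read 69.8, 79.4 and 101 in the Cg and was above background on no BLA array (3.45 to 7.84), at least 9.63-fold higher in the Cg (adjusted p 6.76e-28). A second Trbv13-2 probe read 3.51 ± 0.657 in the Cg and 3.51 ± 0.504 in the BLA and was not above background on any array. Both segments lie on chromosome 6, as does Prss1, a trypsinogen gene embedded in the same locus, which was above background on all Cg arrays and no BLA array at 1 probe (at least 1.36-fold higher in the Cg, adjusted p 5.47e-16) and 0.78 higher at its other probe. Of the T cell markers, Cd3d, Cd3e, Cd3g, Cd4 and Cd8a lay above background on 0 of 33 arrays. Of 14 T cell genes on the array, 7 were above it nowhere in the 2 regions. At 1 probe each, Cd8b1 was above it on 17 Cg and 16 BLA arrays, Zap70 on 6 and 16, and Cd28 on 10 and 6. Of the 4 T cell genes tested, 3 were higher in the BLA, and their summed intensity ran from 594 to 767 in the Cg and from 813 to 1075 in the BLA. Most of this sum came from Thy1, which neurons express strongly (581 ± 39.6 and 862 ± 65.2), so it does not measure T cells. In the other regions Trbv14 averaged 26.7 ± 7.67 in the paraventricular nucleus (PVN), 8.19 ± 2.76 in the CeA and 6.22 ± 1.84 in the dentate gyrus (DG).

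Genes of a joint list of meninges and choroid plexus, and genes of vascular smooth muscle, were mostly higher in the Cg. Of 11 tested genes of meninges and choroid plexus, 10 were higher in the Cg (90.9%) and 1 in the BLA (9.09%), with a median of 0.96. Over all probes these shares were 17.5% and 39.4%. Of the 11 genes 5 were at least 2-fold higher in the Cg. Their summed intensity ran from 506 to 1052 in the Cg (median 653) and from 238 to 415 in the BLA (median 309), so every Cg array lay above every BLA array. Of the 19 genes of the list on the array, 6 were above background on no Cg array and 7 on no BLA array. Slc22a6, an organic anion transporter, read 10.7, 15.5 and 27.8 in the Cg and was above background on no BLA array, at least 1.96-fold higher (adjusted p 1.08e-17). Slc6a13, a transporter of GABA found in leptomeninges, read 35.4, 53.7 and 66.2 in the Cg and 7.47, 15.5 and 22.5 in the BLA (1.80, SE 0.11, adjusted p 3.57e-15). Its neighbour on chromosome 6, the betaine and GABA transporter gene Slc6a12, was above background on 16 of 17 Cg arrays and no BLA array, at least 1.75-fold higher. Aebp1, a collagen-binding protein, read 34.7, 46.1 and 99.2 in the Cg and 10.5, 14.0 and 21.9 in the BLA (1.85, SE 0.12, adjusted p 5.38e-15). The matrix protein gene Mgp was 1.49 higher, Ptgds, which makes prostaglandin D2, 1.44 and the growth factor gene Igf2 0.96. Clic6, a chloride channel protein of choroid plexus, went the other way (-0.90). Ttr, Kl, Folr1, Kcnj13, Kcne2 and Otx2 of the same list were not among the genes tested.

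Of 9 smooth muscle genes, written down after Acta2 had been seen, 6 were higher in the Cg (66.7%) and 2 in the BLA (22.2%). Over all probes these shares were 17.5% and 39.4%. The list had a median of 1.21, and its summed intensities of 324 to 758 in the Cg and 274 to 415 in the BLA overlapped. Acta2, the actin of vascular smooth muscle, read 124, 203 and 334 in the Cg and 28.5, 62.7 and 118 in the BLA (1.79, SE 0.14, adjusted p 1.45e-12). Its difference was 2.31 in HAB, 1.26 in NAB and 1.88 in LAB mice, which did not pass the test of the interaction (adjusted p 0.475). Actg2, the enteric actin, was 1.51 higher and Tpm2, a tropomyosin, 1.38, although a second Tpm2 probe was called in the opposite direction. The kinase gene Mylk was 1 of the 2 genes higher in the BLA, with 45.6 to 106 in the Cg and 89.9 to 137 in the BLA. Another Mylk probe was called toward the Cg. The endothelial gene Vwf was 1.26 higher in the Cg (32.5 to 76.0 against 14.0 to 24.7). Of 15 endothelial and pericyte genes 6 were higher in the Cg (40.0%), 2 in the BLA (13.3%) and 7 not called (median 0.09). The 5 hemoglobin genes had a median of 0.07, and 1 of them was higher in the Cg after centring and 2 after quantile normalisation.

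The remaining leading genes of the Cg had mixed roles. Col5a1, a fibrillar collagen, read 17.6, 29.2 and 41.8 in the Cg and 3.66, 6.34 and 10.4 in the BLA, with 4 of 16 BLA arrays above background (2.17, SE 0.12, adjusted p 1.61e-16). Inmt, an indolethylamine methyltransferase, was at least 2.37-fold higher in the Cg, where it ranged from 7.21 to 74.7. Hs3st3a1, a heparan sulfate sulfotransferase, was at least 2.41-fold higher, and Wnt10a, a secreted ligand, at least 1.66-fold. Urah, which acts in urate breakdown, read 46.4 to 90.6 in the Cg and 12.3 to 17.6 in the BLA (2.07, SE 0.07, adjusted p 6.43e-22), and Mkx, a homeobox factor of tendon, 32.6 to 50.6 and 8.08 to 16.8 (1.86, SE 0.09, adjusted p 7.81e-18). Asgr1, the asialoglycoprotein receptor, was above background on 8 of 17 Cg arrays and at least 1.08-fold higher there. The part of meningeal or vascular tissue in the differences of these genes was not tested.

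**Figure D3:**
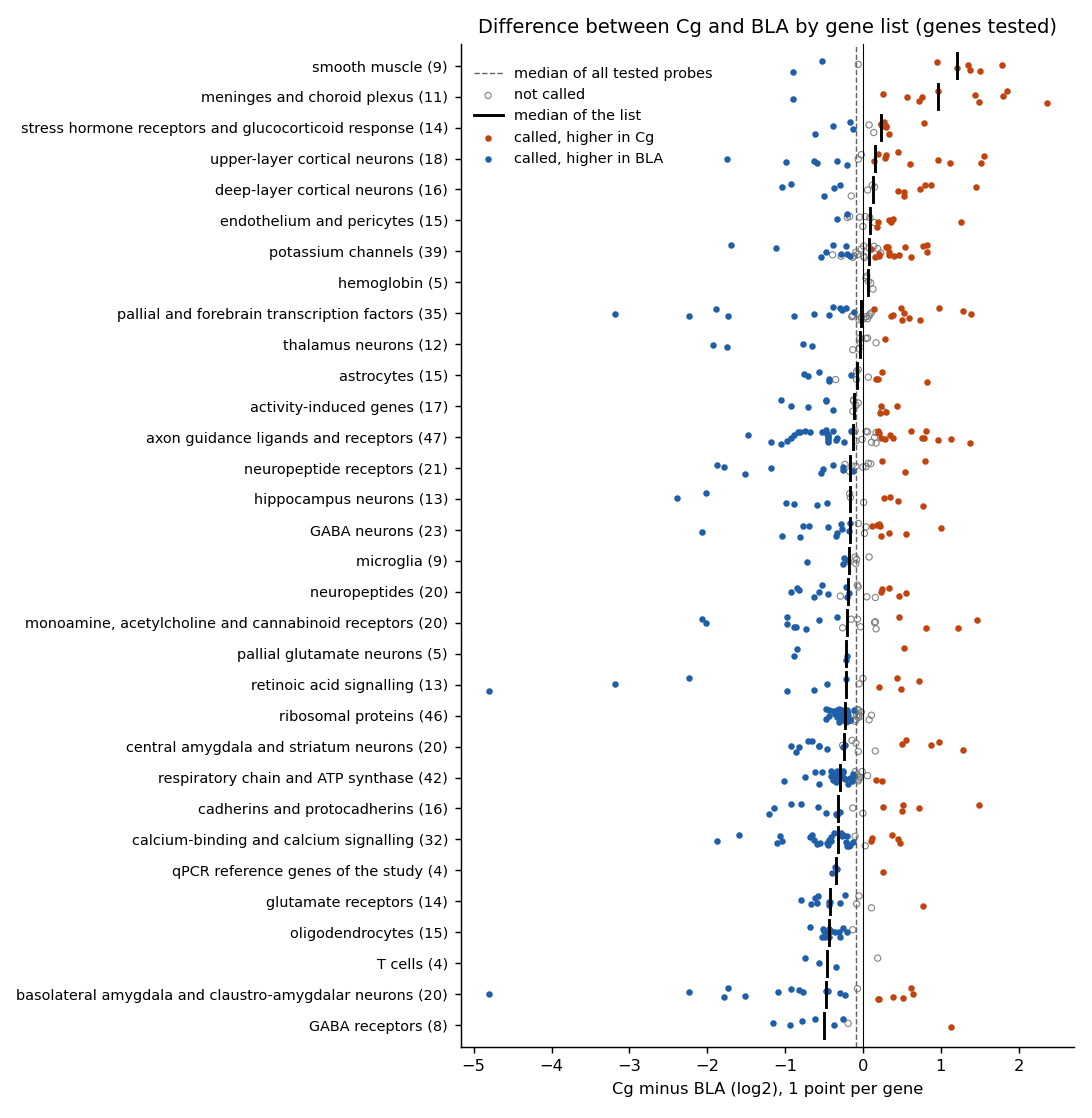
Difference between Cg and BLA (log2, horizontal axis) of each tested gene, by gene list, with the number of genes tested in brackets. Filled points passed an adjusted p of 0.05, short bars are list medians, and the dashed line is the median of all probes at -0.09; lists of smooth muscle (1.21) and meninges (0.96) lie highest and GABA receptors (-0.50) and BLA genes (-0.47) lowest.

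Cortical layer genes differed in both directions. Of 18 upper-layer genes tested, 10 were higher in the Cg (55.6%) and 6 in the BLA (33.3%), with a median of 0.16. Of 16 deep-layer genes the counts were 7 (43.8%) and 5 (31.2%), with a median of 0.13. Over all probes the shares were 17.5% and 39.4%. Pou3f1, a POU-domain factor, read 43.0, 54.6 and 65.5 in the Cg and 13.0, 19.4 and 26.2 in the BLA (1.52, SE 0.08, adjusted p 5.28e-17). Its relative Pou3f2 was 1.12 higher in the Cg and its 2 other tested probes were called in the same direction. Stard8, which carries a lipid-binding START domain, read 53.1, 61.5 and 76.5 and 15.6, 21.1 and 26.5 (1.55, SE 0.07, adjusted p 2.68e-19). Lamp5, a membrane protein of upper layers and of a class of interneurons, read 293 to 376 and 143 to 213 (0.96, SE 0.04, adjusted p 1.60e-18). For Pou3f1, Pou3f2, Stard8 and Lamp5 the regions did not overlap. Among the called upper-layer genes, Cux2, Plxnd1 and Syt17 had another probe called in the opposite direction. Upper-layer genes higher in the BLA included Kitl, which was above background on no Cg array and at least 1.67-fold higher in the BLA, Wfs1 (-0.99), Otof (-0.63) and Calb1 (-0.59).

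Among deep-layer genes Ccn2, a matrix protein of layer 6b, was 1.45 higher in the Cg, where it ranged from 5.82 to 41.3, with 13 of 17 Cg arrays and 3 of 16 BLA arrays above background. Foxp1 (0.87), Ntsr1 (0.80) and Crym (0.74), a thyroid hormone-binding protein, were also higher in the Cg. Etv1, an ETS factor of layer 5, was -1.04 apart, and Nr4a2, a nuclear receptor of layer 6b and claustrum, -0.93 (27.3 to 41.6 against 44.3 to 77.8). Fezf2, which specifies subcerebral projection neurons, read 230 and 213 and was not called (0.12). The vesicular glutamate transporter gene Slc17a7 read 220 to 302 in the Cg and 406 to 588 in the BLA (-0.85, SE 0.05, adjusted p 4.87e-16), and Slc17a6, which thalamic and hypothalamic neurons use, -0.77.

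Adhesion and axon guidance genes held differences of more than 2-fold in both directions. Of 16 cadherin genes tested, 5 were higher in the Cg (31.2%) and 9 in the BLA (56.2%), with a median of -0.32. Cdh12 read 20.4, 30.0 and 36.6 in the Cg and 7.98, 10.7 and 13.7 in the BLA (1.49, SE 0.07, adjusted p 3.31e-18), whereas Cdh22 (-1.21) and Cdh4 (-1.14) were higher in the BLA, each without overlap. Of 47 axon guidance genes, 14 were higher in the Cg (29.8%) and 23 in the BLA (48.9%), and after centring 18 and 20, beside 17.5% and 39.4% of all probes as deposited. Epha8, an ephrin receptor, read 36.1 to 49.1 in the Cg and 13.6 to 20.9 in the BLA (1.38, SE 0.05, adjusted p 2.41e-21), and Efna5, an ephrin ligand, 74.5 to 128 and 35.5 to 63.9 (1.13, SE 0.07, adjusted p 9.98e-15). Sema3a, a secreted semaphorin, went the other way with 16.0 to 28.9 and 31.5 to 75.4 (-1.18, SE 0.10, adjusted p 1.43e-11), as did the slit ligand gene Slit1 (-0.97) and the netrin receptor genes Dcc (-1.05) and Neo1 (-0.92).

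GABA neuron genes were split. Of 23 tested, 8 were higher in the Cg (34.8%) and 12 in the BLA (52.2%), beside 17.5% and 39.4% of all probes (median -0.17). The counts were 9 and 9 after centring, and 4 and 12 without HAB mouse 17. Reln, made by interneurons and by cells of the outermost layer, read 123, 152 and 180 in the Cg and 59.1, 77.7 and 90.0 in the BLA (1.00, SE 0.05, adjusted p 7.90e-17). Calb2, calretinin, read 48.5 to 70.7 and 88.9 to 170 (-1.04, SE 0.08, adjusted p 5.88e-13), and Gad2, an enzyme of GABA synthesis, 94.8 to 158 and 177 to 262 (-0.69, SE 0.06, adjusted p 1.90e-11). Npy was -0.45 apart, and Gad1 -0.34, a call that was lost after quantile normalisation. The parvalbumin gene Pvalb was 0.12 higher in the Cg (adjusted p 0.048).

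Of 15 oligodendrocyte genes, 14 were higher in the BLA (93.3%, median -0.43), and 13 after centring (86.7%). Their summed intensity ran from 1022 to 1392 in the Cg and from 1304 to 2022 in the BLA, so the regions overlapped. Fa2h, which hydroxylates myelin lipids, was -0.68 apart and the myelin basic protein gene Mbp -0.53. Of 15 astrocyte genes 4 were higher in the Cg and 6 in the BLA, with Gfap 0.83 higher in the Cg (40.2 to 94.6 against 18.6 to 48.1) and Atp1b2, a sodium pump subunit, -0.76 apart. Of 9 microglia genes 4 were higher in the BLA as deposited (44.4%) and 2 after centring (22.2%). These shares and the 40.0% of astrocyte genes higher in the BLA lie near those of all probes, 39.4% as deposited and 26.6% after centring.

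Genes of the neighbouring regions were also compared. Of 20 genes of central amygdala and striatum, 5 were higher in the Cg (25.0%) and 10 in the BLA (50%), beside 17.5% and 39.4% of all probes. Toward the BLA Penk (-0.93) and Drd1 (-0.86) led, and toward the Cg Zic1 (1.29), Meis2 (0.98) and Foxp1 (0.87). Their summed intensity was 574 to 828 in the BLA and 524 to 652 in the Cg, with the array of NAB mouse 4 at 1206. Without this mouse 5 and 10 were higher in the Cg and the BLA, and the differences of Penk and Drd1 were -1.0 and -0.92. As given above, the Penk level in the Cg lay around background. Of 13 hippocampal genes, 4 were higher in the Cg (30.8%) and 6 in the BLA (46.2%), led by C1ql3 (-2.39, with overlapping arrays) and Spink8 (-2.02). Spink8 ranged from 2.63 to 18.3 in the Cg and from 21.9 to 59.5 in the BLA. Of 12 thalamic genes, 1 was higher in the Cg (8.33%) and 4 in the BLA (33.3%).

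Genes of energy metabolism and translation showed small differences toward the BLA that shrank with the scaling. Of 42 genes of the respiratory chain and ATP synthase, 32 were higher in the BLA (76.2%) and 2 in the Cg (4.76%) as deposited (median -0.30). Over all probes these shares were 39.4% and 17.5%. The counts of this list were 26 and 3 after centring, and 16 and 12 after quantile normalisation. Of 46 ribosomal protein genes, 33 were higher in the BLA as deposited (71.7%, median -0.23). After centring 21 were higher in the BLA and 2 in the Cg, and after quantile normalisation 6 and 11, so that the order turned under that scaling. The qPCR reference gene Gapdh was -0.40 apart. Among stress hormone and glucocorticoid response genes, 8 of 14 tested were higher in the Cg (57.1%) and 4 in the BLA (28.6%), with a median of 0.23. Hsd11b1, which regenerates corticosterone, was 0.78 higher in the Cg, and Fkbp5, a glucocorticoid-induced co-chaperone, -0.61 apart (18.3 to 28.9 against 29.7 to 41.3). Of 17 activity-induced genes 4 were higher in the Cg (23.5%), led by Arc (0.44), and 6 in the BLA (35.3%), led by Nptx2 (-1.05). These shares lie near the 17.5% and 39.4% of all probes, and without HAB mouse 17 the counts were 2 and 6.

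The levels in the other 3 regions showed whether a gene stood apart in one of the compared regions or was low in the other. Cyp26b1 averaged 286 ± 46.6 in the CeA (SD, n = 17) and 13.2 ± 5.91 in the PVN (n = 16), so it was high in both amygdala nuclei. Rxrg averaged 52.6 ± 7.82 in the CeA, 53.0 ± 10.6 in the PVN and 5.29 ± 1.85 in the DG (n = 9). Tfap2d averaged between 3.70 and 4.19 in these 3 regions, so among the 5 regions its mean was above 10 only in the BLA. Lmo3 averaged 192 ± 15.0 in the DG and 143 ± 17.1 in the CeA, between the Cg and the BLA. For the Cg, Otx1 averaged between 16.5 and 31.8 in the other 3 regions, and Actg2 between 4.64 and 5.34, whereas Pou3f1 averaged 39.3 ± 13.0 in the DG and Mkx 64.6 ± 6.26, above its mean of 42.2 ± 5.11 in the Cg. Epha8 averaged 42.6 ± 6.88 in the CeA, close to the 42.9 ± 3.95 of the Cg, and Meis1 was highest in the CeA (36.6 ± 6.48). Each region is a batch of its own, and these levels are given without a test.

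**Figure D4:**
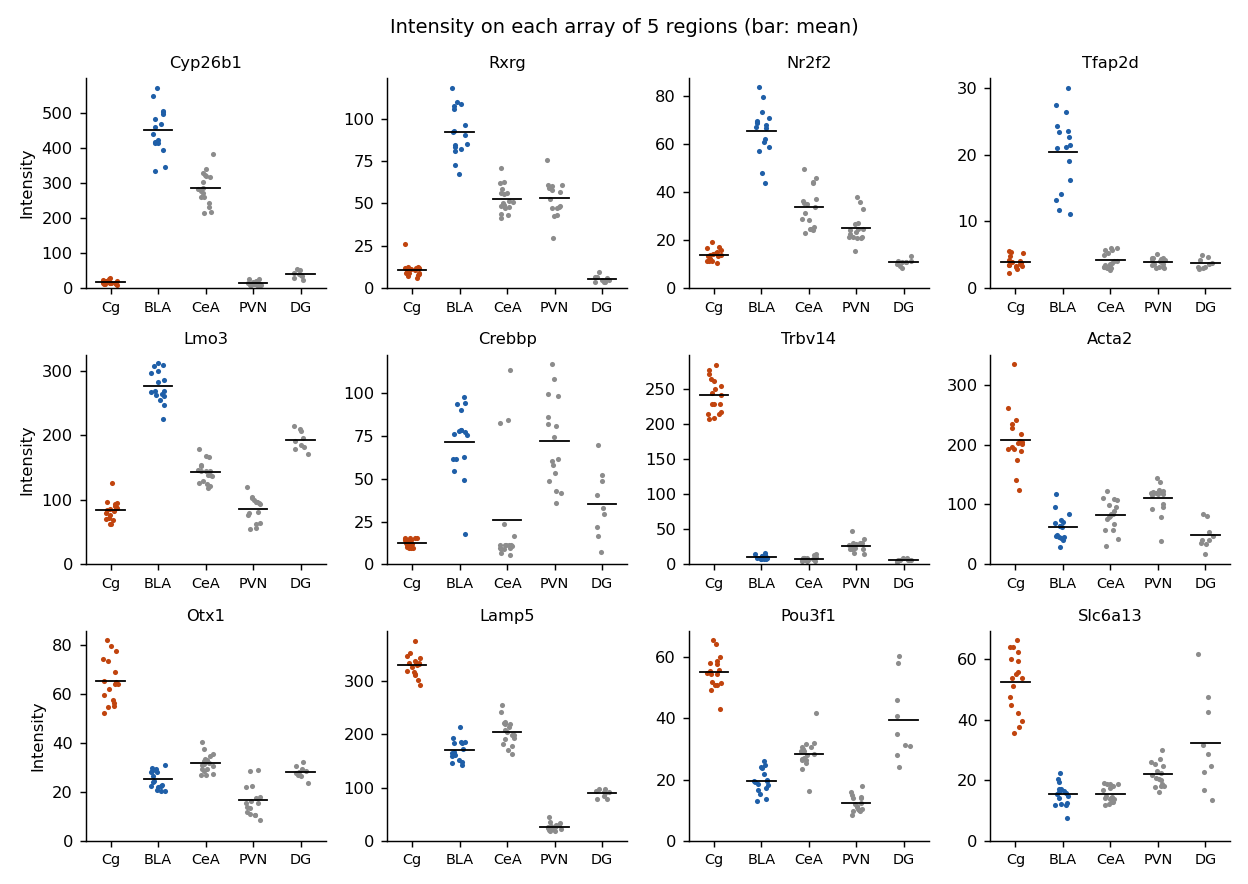
Intensity of 12 genes on each array (linear axis from 0) in the Cg (red), the BLA (blue) and 3 further regions (grey), with bars at the means. Tfap2d is high only in the BLA, Cyp26b1 also in the CeA, and the Crebbp probe is split in the CeA, where 3 arrays lie at 82.6 or above and the rest at 23.4 or below.

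Within single lines the counts of called probes were 5209 in HAB (26.4%), 8474 in NAB (43.0%) and 5835 in LAB mice (29.6%). The lines had unequal numbers of arrays and were compared by the interaction of line and region. This interaction passed the threshold for 15 probes (0.0761%) of 13 named genes, so for nearly all genes a dependence of the regional difference on the line was not detectable with 5 or 6 arrays a group. None of the 30 leading genes passed it, the smallest adjusted p among them being 0.439. The count was 8 with the mouse as a fixed block and 9 without NAB mouse 4.

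Kcnj16, an inward rectifier potassium channel, had the smallest adjusted p of the interaction (3.55e-05). It was higher in the BLA of HAB mice (Cg 47.3 ± 3.71, BLA 64.0 ± 4.42, n = 5 each) and of NAB mice (45.7 ± 1.69 and 63.5 ± 6.32, n = 6 each), but lower and of opposite order in LAB mice (22.5 ± 2.02, n = 6, and 15.1 ± 2.74, n = 5). The differences were -0.44, -0.47 and 0.59. Sorcs1, a sorting receptor, differed by -1.94 in HAB, -2.14 in NAB and -0.52 in LAB mice (adjusted p 4.56e-03). Its Cg level was 29.2 ± 2.78 in LAB mice and 6.82 ± 0.738 and 6.81 ± 1.51 in HAB and NAB mice. The BLA array of HAB mouse 17 read 10.9 for Sorcs1 where the other HAB arrays read 29.5 to 36.9. Card10, a scaffold of NF-kB signalling, differed by -0.96 in NAB and -0.98 in LAB mice and by -0.01 in HAB mice, whose BLA level was 38.7 ± 1.23 (adjusted p 1.11e-03, and 0.0733 with the mouse as a fixed block).

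Arhgap8 was 1.19 higher in the Cg of NAB mice, with 6.10 ± 1.31 in the Cg and 2.65 ± 0.463 in the BLA, and differed by -0.21 and -0.41 in HAB and LAB mice (adjusted p 1.04e-03). With 16 added before log2 the adjusted p was 0.0646 for Arhgap8 and 0.0572 for Sorcs1. Krt12, a keratin known from the cornea, read 81.3 ± 7.37 in the Cg and 52.6 ± 6.59 in the BLA of NAB mice (0.63), and 16.2 ± 2.26 to 22.8 ± 3.05 in the other 4 groups (adjusted p 0.0120, 0.206 with the block, 0.0584 without NAB mouse 2 and 0.0539 without NAB mouse 8). Scara3, a scavenger receptor-like protein, was higher in the Cg of each line, by 0.58 in HAB, 0.34 in NAB and 1.10 in LAB mice (adjusted p 0.0130, and 0.219 with the block). The Scara3 call was also lost without LAB mouse 6, 7 or 10 or NAB mouse 4, with adjusted p 0.052 to 0.099. The 2 remaining genes of the leading 8 carry numbers for names, with adjusted p 7.19e-03 and 7.26e-03. For these genes the level in 1 region or in both also differed by line.

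**Figure D5:**
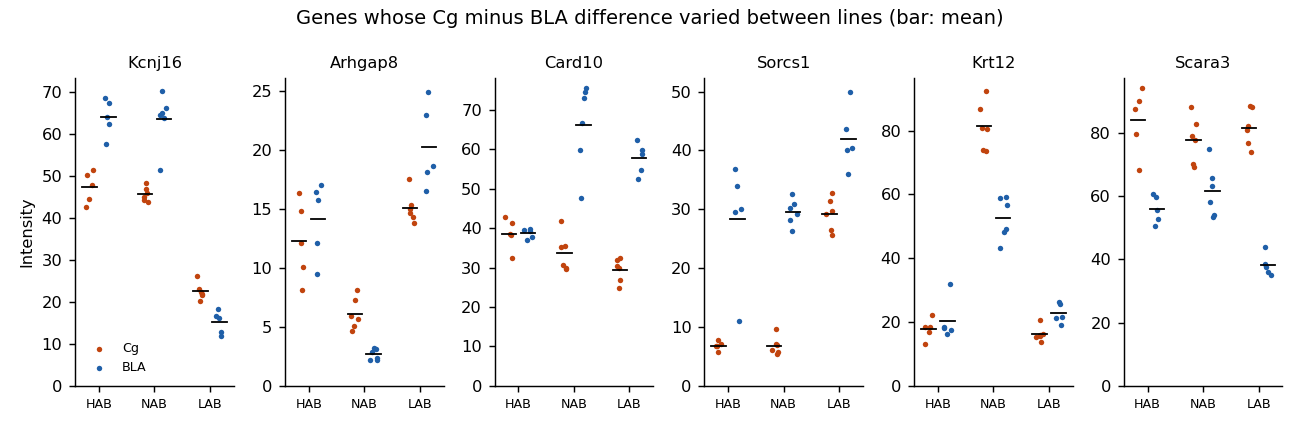
Intensity on each array (linear axis from 0) in the Cg (red) and the BLA (blue) of HAB, NAB and LAB mice for 6 genes with an interaction of line and region, with bars at group means. The order of the regions turns in LAB mice for Kcnj16, and the HAB mice lack the difference of the other lines for Card10.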

How the data were processed

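RNA of laser-dissected Cg and BLA was amplified with the TotalPrep kit and hybridised to Illumina MouseWG-6 v1.1 arrays. The authors read the arrays with BeadStudio, applied QSpline normalisation over all samples and left out 3 samples at the scan. The deposited values are normalised intensity on a linear scale, and log2 of them was used. Versions are not given in the sources used here. A further deposited table, not normalised, holds 156 sample columns in all, whose names match no label, and was not used.

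A probe was tested if at least 5 Cg or at least 5 BLA arrays lay above background. limma 3.58.1 (R 4.3.3, statmod 1.5.0) was fitted with line and region, and with 6 group means for single lines and the interaction. Where all arrays of the dimmer region were at or below background, "at least" marks a bound from the background level. The labels name each mouse by a number, and equal numbers were read as the same animal, which gave 16 pairs of a Cg and a BLA array. Over all regions the labels hold 6 HAB, 7 NAB and 8 LAB numbers where the study describes 6 mice a line, so the pairing rests on the labels alone. Deviations from group means correlated at 0.073 on average within a mouse (11 of 16 above 0, 6 above 0.1) and at -0.0152 between other mice of the line.

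Named were the 15 genes with the largest difference in each direction among those whose regions did not overlap, the largest members of each gene list, and the 8 genes with the smallest adjusted p of the interaction. The comparison, the 28 first gene lists and the tests were chosen with earlier results of these data known, and 4 lists were added after the leading genes had been seen. In a list each gene was read from its brightest tested probe. The fit was tested on simulated data. Alternatives were the scaling, a pseudocount of 16, the filter, array weights, the mouse as block and leaving out each mouse. List counts without HAB mouse 17 or NAB mouse 4 were added after seeing the data.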

Additional observations from a re-analysis of the deposited data

Results flagged for a closer look

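In 228 groups of 5 or 6 arrays of the leading and interaction genes, 15 single arrays stood far from the rest of their group, where chance marks about 1 group in 20. Among genes higher in the BLA, Cyp26b1 read 18.4 in the Cg of HAB mouse 9, against 11.6 to 12.9 on the other arrays of the group, and Nr2f2 read 19.3 on the same array against 13.5 to 14.8. Rxrg read 26.1 in the Cg of NAB mouse 4 against 8.51 to 12.3. Nnat read 57.9 in the BLA of NAB mouse 4, and Thsd4 read 30.8 in the BLA of LAB mouse 6 against 53.4 to 61.5. Among genes higher in the Cg, Inmt read 74.7 in the Cg of LAB mouse 6 against 10.7 to 17.3, and 4.17 in the BLA of LAB mouse 3. Wnt10a read 8.78 in the Cg of HAB mouse 5, Slc6a13 read 14.7 in the BLA of LAB mouse 7, and the numbered gene 9130024F11Rik read 20.2 in the Cg of NAB mouse 4.

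Among genes of the interaction, Kcnj16 read 51.5 in the BLA of NAB mouse 2 against 63.8 to 70.2, and Sorcs1 read 10.9 in the BLA of HAB mouse 17 against 29.5 to 36.9. Krt12 read 20.5 in the Cg of LAB mouse 7 and 31.8 in the BLA of HAB mouse 5, and 5430405H02Rik read 22.5 in the Cg of NAB mouse 13.

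The difference between Cg and BLA itself differed between the lines for 8 named genes, by limma's test of the interaction with 5 or 6 arrays a group. The adjusted p was 3.55e-05 for Kcnj16, 0.00104 for Arhgap8, 0.00111 for Card10, 0.00456 for Sorcs1, 0.00719 for 3300002P13Rik, 0.00726 for 5430405H02Rik, 0.012 for Krt12 and 0.013 for Scara3.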

How the results depend on the processing

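The 30 leading genes kept their direction and their call under all 749 alternative values computed for them. With 16 added before log2, 77 probes differed at least 2-fold in place of 531, since a pseudocount shrinks the differences of dim probes. Of the 30 leading genes 9 then differed by less than 2-fold, for example Slc22a6 (from 2.36 to 0.77), Asgr1 (1.90 to 0.46), Wnt10a (1.83 to 0.59) and Tfap2d (-2.37 to -0.86). With the mouse as a random block 11239 probes were called, 531 of them at least 2-fold, and with it as a fixed block, in paired mice, 11020 and 531. The interaction passed for 16 and 8 probes in these fits. Leaving out each mouse gave 10720 to 11431 called probes, 515 to 561 of at least 2-fold, 3982 to 5360 in HAB, 6731 to 9025 in NAB, 4578 to 6024 in LAB and 9 to 18 for the interaction, 9 of them without NAB mouse 4. Quantile normalisation turned the sign of Camk2a (0.06), Fkbp4 (0.05), Mt1 (0.16) and Nrgn (0.02), and the cause was not tested. Of the 8 named interaction genes, Scara3 was also lost with no filter on dim probes (adjusted p 0.0883). The precision is limited by the number of arrays and, for dim probes, by the background.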
